A study of Homo sapiens with 9 samples.

Results

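The 6 hairpins described here, hsa-mir-142, hsa-mir-223, hsa-mir-146a, hsa-mir-146b, hsa-mir-155 and hsa-mir-150, are precursors of miRNAs best known from white blood cells. They were taken by name from a table of read counts for 1485 human miRNA hairpins, and all 6 were present. Small RNA was sequenced in 9 libraries after 2 human cell lines had been given siRNAs against ERH or control siRNAs. HEK293E, a line derived from human embryonic kidney cells, gave 7 libraries. Its replicate 1 held siGFP, siControl and siERH-3, and its replicate 2 held these and siERH-5. These cells were transfected with Lipofectamine on days 0 and 3 and harvested on day 5. K562, a chronic myelogenous leukaemia line with erythroid features, gave 1 siGFP and 1 siERH-5 library. It was transfected by electroporation (Neon) and harvested 4 days later. The libraries held 2609929 to 3320017 hairpin counts each.

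A hairpin is cut out of a long primary transcript by the Microprocessor, a complex of DROSHA and DGCR8, and Dicer then releases the mature strands, 1 from each arm. ERH binds DGCR8 and is known for helping the Microprocessor on poorly folding hairpins that lie in clusters, hsa-mir-451a among them. Bases 2 to 8 of a mature miRNA, the seed, do most of the pairing with target mRNAs. miR-142 is made in nearly all blood cell lineages, and miR-223 mainly in myeloid cells such as granulocytes. miR-146a and miR-146b dampen NF-κB signalling by repressing the adaptor TRAF6 and the kinase IRAK1. miR-155 comes from the transcript once called BIC and rises in activated lymphocytes and macrophages, and miR-150 is abundant in mature lymphocytes, where it represses MYB.

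The sequences below show which members share a seed. RefSeq (GRCh38.p14) held mature sequences for 5 of the 6 members, and each is written 5′ to 3′ with its seed in capitals.
hsa-miR-142-5p: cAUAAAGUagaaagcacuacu
hsa-miR-142-3p: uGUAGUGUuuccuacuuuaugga
hsa-miR-223-5p: cGUGUAUUugacaagcugaguu
hsa-miR-223-3p: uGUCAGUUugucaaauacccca
hsa-miR-146a-5p: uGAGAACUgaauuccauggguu
hsa-miR-146a-3p: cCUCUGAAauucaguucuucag
hsa-miR-146b-5p: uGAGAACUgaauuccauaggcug
hsa-miR-146b-3p: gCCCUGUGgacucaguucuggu
hsa-miR-155-5p: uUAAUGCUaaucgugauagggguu
hsa-miR-155-3p: cUCCUACAuauuagcauuaaca

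Among these strands only hsa-miR-146a-5p and hsa-miR-146b-5p shared a seed, GAGAACU, which hsa-miR-7153-5p was the other mature miRNA of the RefSeq table to carry. Over the 22 positions compared, counted from 1 at the 5′ end, these 2 strands differed at 2, G18A and U21C from hsa-miR-146a-5p to hsa-miR-146b-5p. The bases before position 18 were the same in both, and how the counting treated reads that fit both hairpins is not given in the sources used here. The 3p strands of hsa-mir-146a and hsa-mir-146b had different seeds. Because the rows of the table are hairpins, counts of the 5p and 3p strands were not separated.

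The hairpins of the 2 members with the largest change between the cell lines are shown with both mature strands in capitals.
hsa-mir-142: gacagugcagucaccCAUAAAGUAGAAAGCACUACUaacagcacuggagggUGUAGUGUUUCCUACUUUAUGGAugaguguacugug
hsa-mir-223: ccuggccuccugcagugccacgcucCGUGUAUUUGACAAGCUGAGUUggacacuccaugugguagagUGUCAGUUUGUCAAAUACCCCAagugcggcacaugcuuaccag

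These hairpins are unlike in base composition. The hsa-mir-142 hairpin is 87 bases long with a GC content of 44.8%, and its predicted folding energy was -44.3 kcal/mol. The hsa-mir-223 hairpin is 110 bases long with 53.6% GC and -47.4 kcal/mol. For hsa-mir-146a the values were 99 bases, 45.5% GC and -39.0 kcal/mol, and for hsa-mir-146b 73 bases, 56.2% GC and -36.1 kcal/mol. The medians over the 1168 hairpins with a RefSeq sequence were 80 bases, 52.5% GC and -38.05 kcal/mol, so the 4 members lay on both sides of the median GC content. The energies are of hairpins of unlike length. Per base they were -0.509 for hsa-mir-142, -0.431 for hsa-mir-223, -0.394 for hsa-mir-146a and -0.495 for hsa-mir-146b, against a median of -0.470. Per base, hsa-mir-142 and hsa-mir-146b were thus more stable than the median, and hsa-mir-223 and hsa-mir-146a less stable.

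In GENCODE 29 (GRCh38, the build of the files) the members lie on 6 chromosomes. MIR142 is at chr17:58331232-58331318 on the minus strand, in an exon of the antisense transcript gene AC004687.1 and opposite an intron of TSPOAP1-AS1. MIR223 is at chrX:66018870-66018979 on the plus strand, in an exon of AL034397.3. MIR146A, at chr5:160485352-160485450 on the plus strand, lies in an exon of its host lincRNA MIR3142HG, and MIR155, at chr21:25573980-25574044 on the plus strand, in an exon of its host MIR155HG. MIR146B (chr10:102436512-102436584, plus strand) and MIR150 (chr19:49500785-49500868, minus strand) overlapped no other annotated gene. The table held 1 other hairpin within 10 kb of a member. That hairpin, hsa-mir-4736, lies 4658 bases from hsa-mir-142 and had 1 count in 1 of the 9 libraries.

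In K562 the members made up a larger part of all hairpin counts than in HEK293E, mostly through hsa-mir-142. Their summed counts were 9.38% of the siGFP library and 9.69% of the siERH-5 library, against 0.0591% to 0.109% in the 7 HEK293E libraries. hsa-mir-142 alone was 6.67% of K562 siGFP and 6.60% of K562 siERH-5. hsa-mir-146a was 0.0277% and 0.0316% of them, and hsa-mir-150 and hsa-mir-155 were lower still. K562 and HEK293E were compared with edgeR's quasi-likelihood test over all 9 libraries, with a term for siERH and Benjamini-Hochberg adjustment over the 790 hairpins that averaged 10 counts or more. All 6 members passed that filter, hsa-mir-223 only through its K562 counts and hsa-mir-155 only through its HEK293E counts. Such hairpins had to differ between the lines to be tested, and the values of both are given as a description. Of the other members, hsa-mir-142, hsa-mir-146a and hsa-mir-146b were higher in K562 at an adjusted p under 0.05, and hsa-mir-150 did not pass. Over all hairpins, 28.9% were higher and 35.2% lower by the same rule, or 64.1% in either direction. Both K562 libraries lay above all 7 HEK293E libraries for those called members, as they did for 24.7% of all hairpins tested. They also lay above them for hsa-mir-223 and below them for hsa-mir-155, where the filter favoured such a difference. Both lay below for 32.2% of all hairpins tested. The median log2 fold change of the 6 members was 4.57, against -0.20 over all 790. As hsa-mir-223 was the highest and hsa-mir-155 the lowest of the 6, leaving both out could not change the member median. That omission is therefore no check on the median. The K562 libraries carried different siRNAs and were not replicates of a single condition, so the spread in this test came mostly from HEK293E. In bulk libraries such as these, fewer cells of a type and less RNA per cell cannot be told apart.

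hsa-mir-142 was the most abundant of the 1485 hairpins in both K562 libraries, with 174339 counts in siGFP and 219058 in siERH-5. In HEK293E it had 303 counts in siGFP, 239 in siControl and 517 in siERH-3 of replicate 1, and 442, 343, 643 and 1200 in siGFP, siControl, siERH-3 and siERH-5 of replicate 2. Every K562 value lay far above every HEK293E value, and the HEK293E counts, although well above 3 counts, placed the hairpin between rank 218 and rank 309. edgeR put the change at 9.69 ± 0.38 (SE) on the log2 scale, with an adjusted p of 3.3e-10. It was 9.07 without the K562 siGFP library and 10.29 without the K562 siERH-5 library.

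hsa-mir-223, the myeloid member, had 32446 counts in K562 siGFP and 43807 in K562 siERH-5, where it ranked 17th and 16th. The HEK293E replicate 1 libraries held 1 count in siGFP, 1 in siControl and 2 in siERH-3, and those of replicate 2 held 25 in siGFP, 1 in siControl, 5 in siERH-3 and 5 in siERH-5. The hairpin was thus at or below 3 counts in 4 of the 7 HEK293E libraries, and the siGFP library of replicate 2 stood apart from the rest. The fitted change was 13.71 ± 0.64 (SE) on the log2 scale and rests on few HEK293E counts. Without the siGFP library of replicate 2 it was 14.93, without the K562 siGFP library 14.31, and in the siGFP libraries alone 12.42.

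hsa-mir-142 and hsa-mir-223 were not in the same proportion in the 2 lines. There were 5.37 counts of hsa-mir-142 per count of hsa-mir-223 in K562 siGFP and 5.00 in K562 siERH-5. In HEK293E the ratio was 17.7 in the siGFP library of replicate 2, 129 in siERH-3 of replicate 2, and between 239 and 343 in the other 5 libraries. These ratios do not depend on scaling between libraries, and in HEK293E their denominators are the few counts given above.

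**Figure D1:**
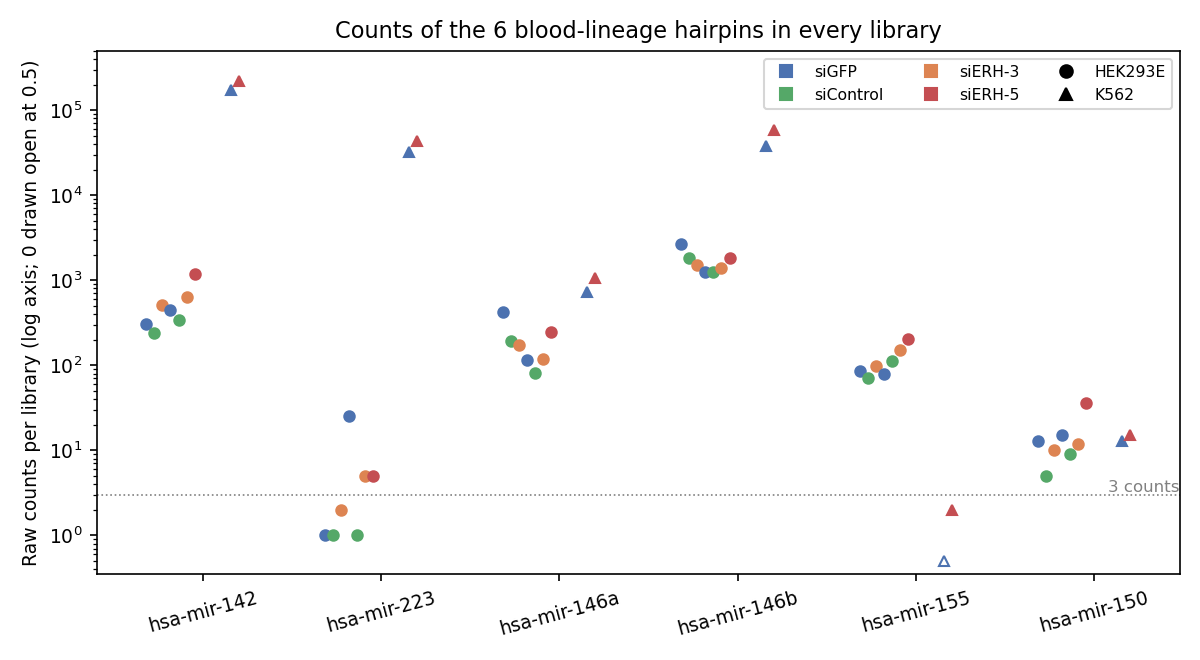
Raw counts of each member hairpin in every library on a log axis, with circles for HEK293E, triangles for K562 and colours for the siRNA; a count of 0 is drawn open at 0.5 and the dotted line marks 3 counts. The K562 triangles of hsa-mir-142, hsa-mir-223, hsa-mir-146a and hsa-mir-146b lie above all HEK293E circles, those of hsa-mir-155 lie below, and those of hsa-mir-150 lie among them.

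Of the NF-κB feedback pair, hsa-mir-146b carried most of the K562 signal. It had 37721 counts in K562 siGFP and 57704 in K562 siERH-5, and in HEK293E 2656, 1840 and 1519 in siGFP, siControl and siERH-3 of replicate 1 and 1246, 1267, 1391 and 1840 in siGFP, siControl, siERH-3 and siERH-5 of replicate 2. It was the most abundant of the members in every HEK293E library and second to hsa-mir-142 in K562. K562 exceeded HEK293E by 5.87 ± 0.18 (SE) on the log2 scale, with an adjusted p of 2.3e-11 in edgeR.

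The sister hairpin hsa-mir-146a was at a much lower level in K562, with 725 counts in siGFP and 1049 in siERH-5. In counts per 1e+06 (CPM) scaled over the 9 libraries these were 522 and 479. On the same scale HEK293E held 103, 55.2 and 43.8 in siGFP, siControl and siERH-3 of replicate 1 and 41.3, 26.3, 32.3 and 64.1 in siGFP, siControl, siERH-3 and siERH-5 of replicate 2. Both K562 values were above all 7 HEK293E values, among which siGFP of replicate 1 was the highest. The difference was 3.28 ± 0.36 (SE) on the log2 scale (adjusted p = 4.1e-06 in edgeR), below the 5.87 of hsa-mir-146b.

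The lymphocyte members went other ways. hsa-mir-155 had 0 counts in K562 siGFP, which allows up to 3 counts, or 1.15 CPM of the library total, and 2 counts in K562 siERH-5. In HEK293E it had 86, 70 and 99 counts in siGFP, siControl and siERH-3 of replicate 1 and 78, 111, 152 and 202 in siGFP, siControl, siERH-3 and siERH-5 of replicate 2. This blood-lineage hairpin was therefore lower in the blood line than in the kidney line in every library. Against the floor of 3 counts per library and on library totals, it was at least 24.4-fold lower in K562 siGFP than in the 2 HEK293E siGFP libraries. In the siERH-5 libraries it was 103-fold lower in K562, with a 95% counting interval of 28.2 to 859. The fitted log2 value of -5.87 ± 0.68 (SE) rests on a prior count and was -9.43 without the K562 siERH-5 library and -5.24 without the K562 siGFP library.

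hsa-mir-150 had low counts in every library, between 5 and 36. It had 13 and 15 counts in K562 siGFP and siERH-5, against 13, 5 and 10 in siGFP, siControl and siERH-3 of HEK293E replicate 1 and 15, 9, 12 and 36 in siGFP, siControl, siERH-3 and siERH-5 of replicate 2. The groups overlapped. In edgeR the difference was 0.98 ± 0.56 (SE) on the log2 scale with an adjusted p of 0.14, and it was 1.41 with an adjusted p of 0.016 in edgeR without the HEK293E siERH-5 library. On library totals the fitted value was 0.02.

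**Figure D2:**
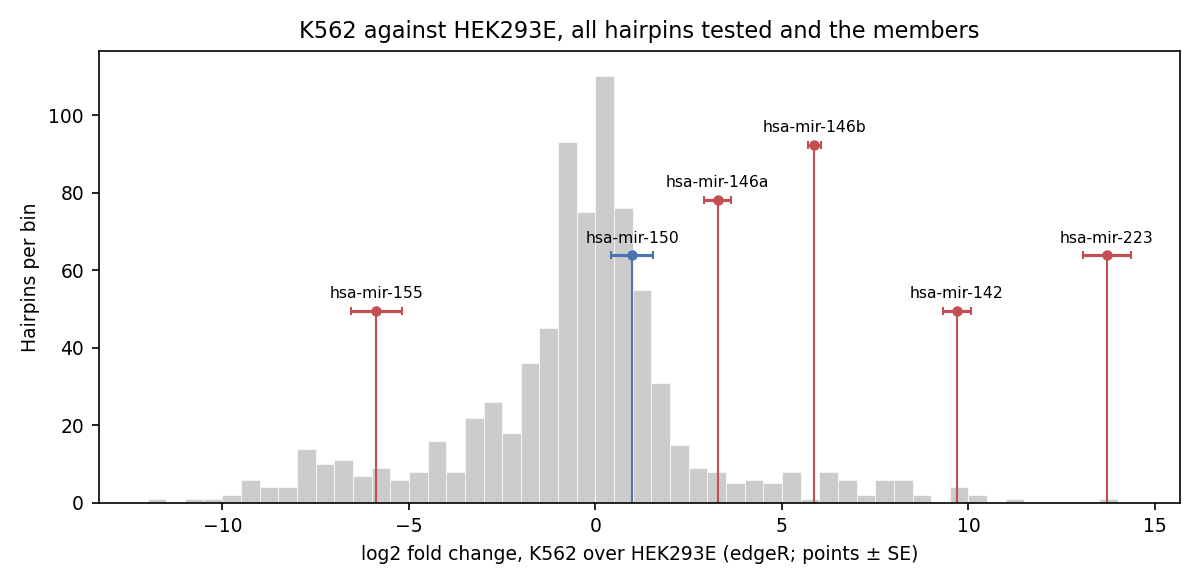
Distribution of the log2 fold change, K562 over HEK293E, over the 790 hairpins tested (grey bars, hairpins per bin), with the members as points ± SE at arbitrary heights, red where the adjusted p was under 0.05 and blue otherwise. hsa-mir-223 at 13.71 lies at the far right, hsa-mir-150 at 0.98 lies within the central peak and hsa-mir-155 at -5.87 lies in the left tail. The values of hsa-mir-223 and hsa-mir-155 are a description, since each passed the count filter through a single line.

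The size of these fold changes also depends on the normalisation. Trimmed-mean (TMM) scaling gave the K562 libraries factors of 0.53 and 0.66. On library totals alone the median over all hairpins was -1.18, and hsa-mir-142, hsa-mir-223, hsa-mir-146a and hsa-mir-146b were at 8.70, 12.73, 2.27 and 4.88. The higher calls of hsa-mir-142, hsa-mir-146a and hsa-mir-146b were made on that scale too. Folds of libraries with the same siRNA were taken on library totals, with 95% counting intervals. The siGFP folds pool the counts of the 2 HEK293E siGFP libraries, and their intervals leave out the spread between these libraries. In HEK293E siGFP, hsa-mir-142 was at 93.3 CPM of the library total in replicate 1 and 169 in replicate 2. hsa-mir-146b was at 818 and 477 there. The folds were 524 (488 to 564) for hsa-mir-142 in siGFP and 178 (169 to 189) in siERH-5. For hsa-mir-223 they were 2797 (1909 to 4282) and 8562 (3669 to 26371). The first rests on 26 HEK293E counts, 25 of them in the siGFP library of replicate 2, and without that library, a choice made after seeing the data, it was 40323 (7237 to 1592727) from 1 count. The folds were, for hsa-mir-146a 3.03 (2.71 to 3.40) and 4.12 (3.58 to 4.75), and for hsa-mir-146b 21.7 (21.0 to 22.4) and 30.6 (29.3 to 32.1). hsa-mir-150 had 1.04 (0.495 to 2.08) in siGFP and 0.407 (0.207 to 0.762) in siERH-5. Cell line, transfection method, harvest day and the labels' experimental group changed together, so their parts in these differences cannot be told apart.

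ERH knockdown was compared with control in HEK293E, 3 siERH libraries against 4 control libraries, to ask whether the members followed the depletion of this Microprocessor partner. The ERH transcript itself was not measured in these small RNA libraries. The edgeR test covered 773 hairpins, and 5 of the 6 members passed its count filter, hsa-mir-223 being too low. Of these 5, hsa-mir-142 was higher after siERH and none was lower at an adjusted p under 0.05, where 23.8% of all hairpins tested were higher and 16.2% lower. No member had all 3 siERH libraries above, or all below, the 4 controls, as 25.5% and 19.1% of all hairpins tested had. The median log2 fold change of the 5 members was 0.52, against -0.01 over all 773. Without the siERH-5 library the member median was -0.16, against -0.02 over 759 hairpins. The values below are CPM scaled by TMM over the 7 HEK293E libraries.

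hsa-mir-142 was at 86.6 in siGFP, 84.0 in siControl and 153 in siERH-3 of replicate 1. In replicate 2 it was at 186 in siGFP, 130 in siControl, 196 in siERH-3 and 341 in siERH-5. Within each replicate every siERH library was above both controls, while over all libraries the siERH-3 library of replicate 1 lay below the siGFP library of replicate 2. The share of all hairpins with this within-replicate order was not counted, so the order is not shown to be particular to the members. Controls averaged 122 ± 48.0 (SD, n = 4) and siERH libraries 230 ± 98.3 (SD, n = 3). On the log2 scale siERH was higher by 0.92 ± 0.34 (SE), with an adjusted p of 0.0489 in edgeR. With the replicate number as a block the value was 0.80 ± 0.21 and the adjusted p 0.0075, in a fit that called 28.1% of hairpins higher and 20.6% lower. This call sat at the threshold: without the siERH-5 library it was 0.53 (edgeR adjusted p = 0.26), and over all alternatives the adjusted p ran from 0.0075 to 0.26. Each of siGFP of replicate 1, siControl of either replicate and siERH-3 of replicate 2, left out in turn, also ended the call, at edgeR adjusted p values of 0.098, 0.12, 0.070 and 0.076. The call stayed without siGFP of replicate 2 (1.19, edgeR adjusted p = 0.017) and without siERH-3 of replicate 1 (1.18, edgeR adjusted p = 0.028).

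The rise was not equal in the 2 siRNAs of replicate 2. Against the mean of the same replicate's controls on the log2 scale, hsa-mir-142 was at 0.84 in siERH-3 of replicate 1, 0.31 in siERH-3 of replicate 2 and 1.10 in siERH-5 of replicate 2. siERH-5 has 1 HEK293E library, so the difference between the siRNAs was not tested. With siERH-3 alone against the same 4 controls, none of 5 members passed in edgeR, 0 at an unadjusted p under 0.05 and 0 in DESeq2, where 19.1% of 759 hairpins were higher and 11.5% lower. There hsa-mir-142 was at 0.53 (edgeR adjusted p = 0.26), and at 0.59 with an adjusted p of 0.038 in edgeR with the replicate block, which called 26.4% higher and 18.7% lower.

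hsa-mir-155 was also highest in siERH-5, without passing the test. It was at 24.6 in siGFP, 24.6 in siControl and 29.3 in siERH-3 of replicate 1, and at 32.9, 42.2, 46.4 and 57.4 in siGFP, siControl, siERH-3 and siERH-5 of replicate 2. As with hsa-mir-142, each siERH library was above the controls of its own replicate and the groups overlapped between replicates. Here too the share of all hairpins in that order was not counted. edgeR gave a log2 difference of 0.52 ± 0.28 (SE) with an adjusted p of 0.17.

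The NF-κB feedback pair varied as much between replicates as between arms. hsa-mir-146b was at 759, 646 and 450 in siGFP, siControl and siERH-3 of replicate 1 and at 525, 482, 424 and 523 in siGFP, siControl, siERH-3 and siERH-5 of replicate 2. siERH-3 was the lowest library in each replicate, and the groups overlapped through siERH-5. The siERH difference was -0.37 ± 0.20 (SE) on the log2 scale, with an adjusted p of 0.16 in edgeR.

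hsa-mir-146a was at 121, 67.4 and 51.3 in siGFP, siControl and siERH-3 of replicate 1 and at 48.1, 30.8, 36.6 and 70.7 in siGFP, siControl, siERH-3 and siERH-5 of replicate 2. The siERH library was the lowest in replicate 1, and siERH-5 was the highest in replicate 2. The log2 difference of -0.34 ± 0.41 (SE) had an adjusted p of 0.53 in edgeR and turned to 0.11 without the siGFP library of replicate 1.

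hsa-mir-150 reached 10.2 in siERH-5, where it had 36 counts, and was between 1.76 and 6.33 in the other 6 HEK293E libraries. Its log2 difference of 0.59 ± 0.50 (SE), adjusted p 0.38 in edgeR, became -0.16 without siERH-5. hsa-mir-223, left out by the filter, was at 0.286 to 10.5 in controls and 0.593 to 1.53 in siERH libraries.

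**Figure D3:**
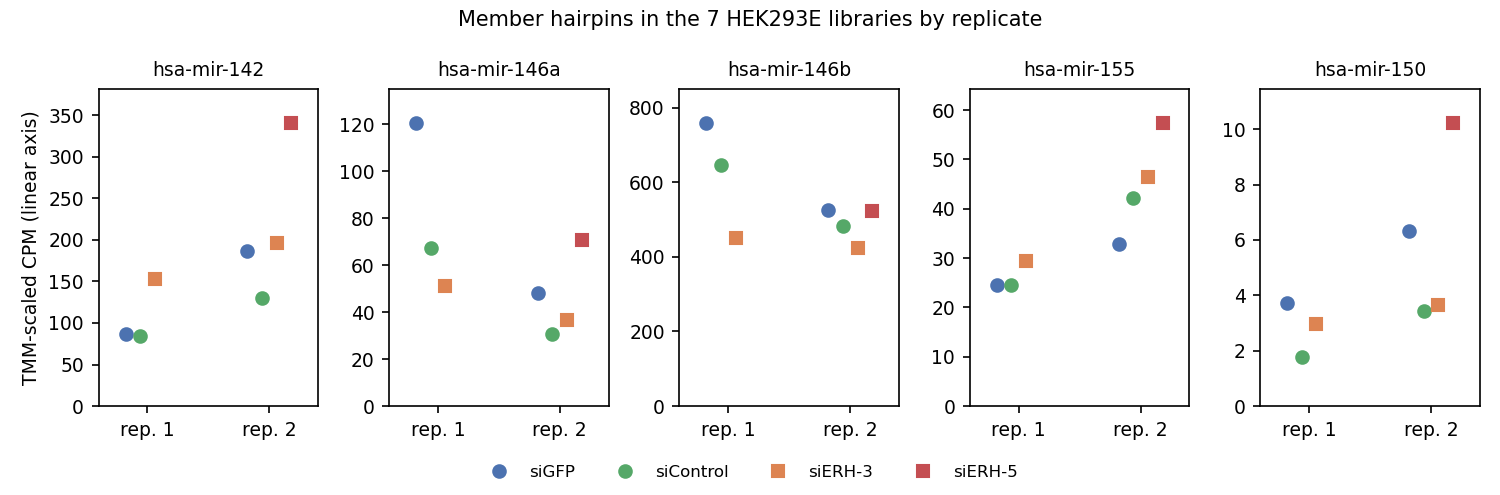
TMM-scaled CPM (linear axes from 0) of the 5 members that passed the count filter, in each HEK293E library by replicate, with circles for control siRNAs and squares for siERH. hsa-mir-142 and hsa-mir-155 have their squares above the circles of the same replicate, and hsa-mir-146a and hsa-mir-146b have a lower square than both circles in replicate 1.

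**Figure D4:**
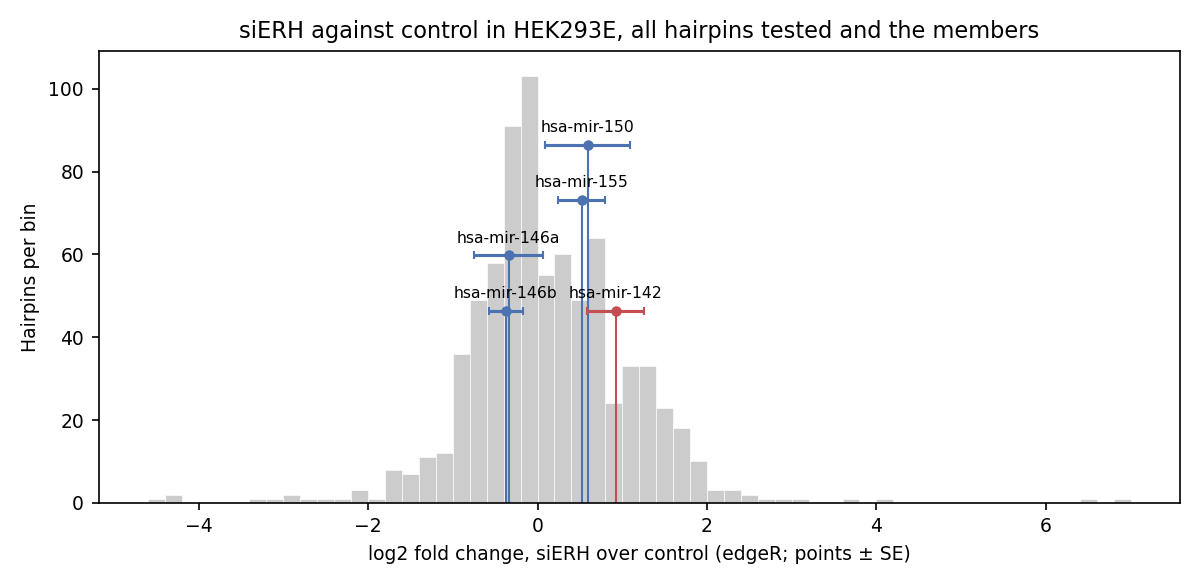
Distribution of the log2 fold change, siERH over control in HEK293E, over the 773 hairpins tested (grey bars, hairpins per bin), with 5 members as points ± SE at arbitrary heights, red where the adjusted p was under 0.05 and blue otherwise. The members lie between -0.37 and 0.92, within the range of most hairpins.

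The control siRNAs were compared with each other to show how far members moved without siERH. In siControl against siGFP, 2 libraries each, none of the 5 members tested passed in edgeR, 0 at an unadjusted p under 0.05 and 0 in DESeq2, and 0% of 730 hairpins passed. With so few libraries many differences could be missed, and the missing calls do not show that the controls were alike. With the replicate block 8.36% were lower and 9.86% higher. In that fit hsa-mir-146a was lower with siControl by a log2 value of -0.78 ± 0.18 (SE; edgeR adjusted p = 0.0004), a size that exceeds its siERH difference, while hsa-mir-142 was at -0.30 (edgeR adjusted p = 0.19). The siControl library was below the siGFP library for hsa-mir-146a in both replicates.

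In K562 the siERH-5 and siGFP arms have 1 library each, so there is no test and no replicate check. On CPM scaled by TMM over these 2 libraries, plus 1, the log2 ratio was -0.30 (95% counting interval -0.31 to -0.29) for hsa-mir-142 and -0.19 (-0.22 to -0.17) for hsa-mir-223. It was -0.09 (-0.23 to 0.04) for hsa-mir-146a, -0.01 (-0.03 to 0.00) for hsa-mir-146b and -0.35 (-1.59 to 0.77) for hsa-mir-150. For hsa-mir-155 no ratio is given, since both libraries were under 3 counts. No member with a ratio reached a 2-fold difference. Of 646 hairpins, 6.81% were lower and 10.1% higher by that much or more, and the median over all 646 was 0.11. On library totals that median was 0.37, hsa-mir-142 was at -0.02, and hsa-mir-223, hsa-mir-146a and hsa-mir-146b were at 0.09, 0.19 and 0.27, so the sign of these 3 depends on the scaling. The intervals cover counting error only.

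The test of whether the siERH difference itself differed between the lines called none of the 6 members in edgeR, 0 at an unadjusted p under 0.05 and 0 in DESeq2, where 0.506% of 790 hairpins were called higher and 0% lower. For hsa-mir-142 the difference, K562 minus HEK293E, was -1.31 ± 0.71 (SE; edgeR adjusted p = 0.59), and for hsa-mir-146b 0.27 ± 0.39 (SE; edgeR adjusted p = 0.89). The lone K562 libraries are assumed there to vary like the HEK293E libraries. With 1 K562 library per arm only large differences could pass, and the missing calls do not show that the lines respond alike.

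The balance between the 2 hairpins that share a seed was read as the share of hsa-mir-146a in the summed counts of hsa-mir-146a and hsa-mir-146b, which does not depend on scaling. The share was 13.7% in siGFP, 9.45% in siControl and 10.2% in siERH-3 of replicate 1. In replicate 2 it was 8.38% in siGFP, 6.01% in siControl, 7.94% in siERH-3 and 11.9% in siERH-5. K562 siGFP had 1.89% (95% Wilson interval 1.75% to 2.03%) and K562 siERH-5 1.79% (1.68% to 1.90%), below all HEK293E libraries. In both replicates siControl had a lower share than siGFP. The log2 ratio of hsa-mir-146a to hsa-mir-146b was -3.33 ± 0.54 (SD, n = 4) in HEK293E controls and -3.18 ± 0.33 (SD, n = 3) after siERH. That difference of 0.15 gave a two-sided exact permutation p of 0.743, the smallest possible with these 35 splits being 0.0286. The siERH libraries were -0.18 from the controls of replicate 1 and 0.50 from those of replicate 2, and after centring on the replicate they differed by 0.22 (exact permutation p = 0.50; its 18 splits cannot give less than 0.0556).

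**Figure D5:**
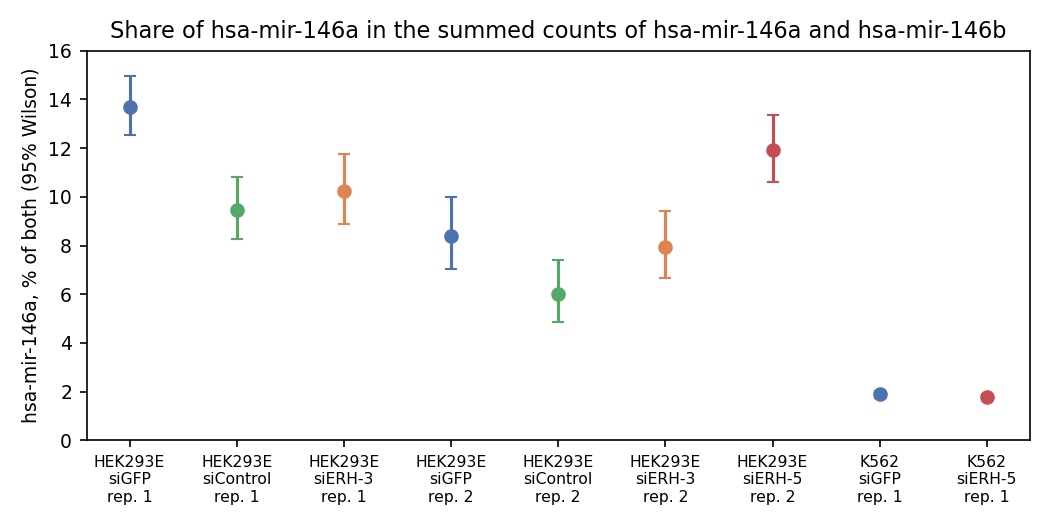
Share of hsa-mir-146a in the summed counts of hsa-mir-146a and hsa-mir-146b in each of the 9 libraries, with 95% Wilson intervals for counting error and colours for the siRNA. HEK293E libraries lie between 6.01% and 13.7% and both K562 libraries lie under 2%.

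Marker hairpins were read in the same fits to place the 2 lines. All 4 erythroid hairpins (hsa-mir-144, hsa-mir-451a, hsa-mir-486-1 and hsa-mir-486-2) were higher in K562, with a median log2 fold change of 7.54, and their summed level was 65090 to 70783 CPM of the library total in K562 and 1834 to 3064 in HEK293E. The near-identical copies hsa-mir-486-1 and hsa-mir-486-2 had log2 fold changes of 5.26 and 5.27 and cannot be told apart by reads that fit both. Their counts were nearly equal, 51998 and 51927 in K562 siGFP and 2360 to 4523 and 2355 to 4520 in HEK293E. In the count of 4, the median and the sum they may thus stand for little more than 1 hairpin. The other lists did not set K562 apart in this way. Of 10 further blood hairpins 3 were higher and 6 lower in K562, where 28.9% of all hairpins were higher and 35.2% lower. Their median was -0.90, and their sum was 38039 to 38843 CPM in K562 and 58336 to 80823 in HEK293E. The 2 most abundant, hsa-mir-222 and hsa-mir-126, an endothelial and stem cell hairpin, were at -4.02 and 3.96. Of 11 epithelial and kidney hairpins 4 were higher and 5 lower, with a median of 0.12 and sums of 2864 to 3331 CPM in K562 and 1916 to 2906 in HEK293E. The 2 most abundant of these, hsa-mir-194-2 and hsa-mir-194-1, were at 1.66 and 1.64. Their counts were nearly equal (1156 to 3067 and 1146 to 2965 in HEK293E), so they may count as little more than 1 hairpin.

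After siERH in HEK293E, where 16.2% of all hairpins tested were lower and 23.8% higher, 2 of the 4 erythroid hairpins were lower and none higher (median -0.43). Those 2 were the copies hsa-mir-486-1 and hsa-mir-486-2, at -0.55 each, which count as little more than 1 hairpin. Of the further blood hairpins 4 of 10 were lower and none higher (median -0.39), with hsa-mir-126 at -0.69 (edgeR adjusted p = 0.017) and hsa-mir-222 at -0.29 (edgeR adjusted p = 0.37). Of the epithelial and kidney hairpins 4 of 10 were lower and 2 higher (median -0.61), and the 2 most abundant, hsa-mir-194-2 and hsa-mir-194-1, were the higher ones, at 0.71 and 0.68. With their nearly equal counts these too may count as little more than 1 hairpin. hsa-mir-142, at 0.92, had the opposite sign to the hairpins of both blood lists that were called in HEK293E, all of them lower. Its own call sat at the threshold (edgeR adjusted p = 0.0489) and did not hold without siERH-5, where it was at 0.53. The difference between hsa-mir-142 and those hairpins was not tested.

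The hairpins with the most similar level across the 9 libraries were ranked by Pearson's r of log2(TMM-scaled CPM + 1) against 789 others. The closest were hsa-mir-224 for hsa-mir-142 (r = 0.997), hsa-mir-767 for hsa-mir-223 (0.993), hsa-mir-22 for hsa-mir-146a (0.986), hsa-mir-1247 for hsa-mir-146b (0.997) and hsa-mir-2114 for hsa-mir-155 (0.992). For hsa-mir-150, whose counts were low throughout, it was hsa-mir-1296 (0.902). The next closest were hsa-mir-548x and hsa-mir-1273h for hsa-mir-142, hsa-mir-24-2 and hsa-mir-3667 for hsa-mir-223, and hsa-mir-1299 and hsa-mir-127 for hsa-mir-146a. The same places were held by hsa-mir-185 and hsa-mir-451a for hsa-mir-146b, hsa-mir-935 and hsa-mir-542 for hsa-mir-155, and hsa-mir-4802 and hsa-mir-1185-1 for hsa-mir-150. No member was among the 3 closest of another member. The points share the difference between the 2 lines and the library scaling, so these values describe mainly the contrast of 7 HEK293E with 2 K562 libraries.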

How the data were processed

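Small RNA fragments of 18 to 30 nt were gel-purified from total RNA mixed with 30 spike-in RNAs, per the labels' protocols. The authors deposited raw counts per hairpin, whole numbers with blanks that were read as 0, and a table of RPM. Recomputed from the counts, the deposited RPM included a pseudocount of 1 in each of the 1485 rows. cutadapt, Bowtie2, bedtools and the build hg38 are named in the submitters' processing notes; settings and the counting rule are not given in the sources used here. Spike-ins were not used, so changes are relative to other hairpins.

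Libraries were grouped by cell line and siRNA in the labels. Counts were tested with edgeR 4.0.16 in R 4.3.3 (quasi-likelihood, TMM, mean of at least 10 counts, Benjamini-Hochberg adjusted p under 0.05). DESeq2 1.42.0, limma 3.58.1 on log2(RPM + 1) and log2(RPM + 10), other scalings, no filter and leaving out each library were alternatives. The pipeline was tested on simulated data. p-values measure the spread between these libraries, which may be technical, since the labels do not say whether they came from separate cultures. Same-numbered HEK293E libraries deviated together (r = 0.69, 0.48 and 0.52 for the 3 pairs of siRNAs). The main HEK293E fits left this pairing out, and the replicate number was fitted as a block only in an alternative. Intervals and floors (3 counts) cover counting error only. Folding energies were computed with RNAfold 2.7.2.

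The members and marker lists were chosen with earlier results of these data known. Named hairpins were the 6 members, table rows within 10 kb of one, the 3 with the most similar pattern for each member, and the 2 most abundant of each marker list.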

Additional observations from a re-analysis of the deposited data

Results flagged for a closer look

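One value stood apart among the 4 HEK293E control libraries. hsa-mir-223 was at 10.5 TMM-scaled CPM in the siGFP library of replicate 2, from 25 counts, while the other 3 controls had 1 count each. The gap to the nearest of the others was 0.991 of the range, above Dixon's 95% critical value for 4 samples. Of the 6 members tested in this way 1 stood apart, where chance gives about 1 in 20 for each set of normally distributed values. Counts as low as 1 do not meet that condition, and 1 of 6 is not shown to exceed chance. In the same library the erythroid hairpins hsa-mir-451a and hsa-mir-144 had 61 and 51 counts, within their range in the other HEK293E libraries (51 to 105 and 49 to 87). The 25 counts were 0.0771% of those in K562 siGFP. The other members were within the range of all HEK293E libraries there. Among the 4 controls, hsa-mir-142 was highest in that library, at 186 TMM-scaled CPM against 84.0 to 130. hsa-mir-150 was highest there too, at 6.33 against 1.76 to 3.71, while hsa-mir-146a, hsa-mir-146b and hsa-mir-155 were not. The source of the 25 counts was not tested.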

How the results depend on the processing

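In K562 against HEK293E, hsa-mir-142, hsa-mir-146a and hsa-mir-146b were called higher in all 16 tested alternatives. As a description, hsa-mir-223 stayed higher and hsa-mir-155 lower in all 16. hsa-mir-150 was called only without HEK293E siERH-5, and in the siERH-5 libraries alone it was at -0.34. For siERH against control the count of higher members was 0, not 1, with RLE scaling, with siGFP controls alone and with siControl controls alone, and 0 to 1 when single libraries were left out; hsa-mir-142, the member concerned, kept its direction in all 18 alternatives and passed in 10. hsa-mir-146a turned to 0.075 with siControl controls alone and to 0.50 in replicate 2 alone, and ran from -0.60 to 0.11 with libraries left out, where hsa-mir-150 ran from -0.16 to 0.93. With the replicate block the count of higher members was 1 for siERH-3 (hsa-mir-142), the count of lower members was 1 for siControl against siGFP (hsa-mir-146a), and no other member's call changed. With single libraries left out, siControl against siGFP ran from -0.78 to 0.29 for hsa-mir-142 and from -1.47 to 0.042 for hsa-mir-146a, and the siERH difference in the log2 ratio of hsa-mir-146a to hsa-mir-146b from -0.063 to 0.37. The cause of these changes was not tested. Depth limits hsa-mir-223 and hsa-mir-150 in HEK293E and hsa-mir-155 in K562.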
